A study of Homo sapiens with 38 samples.

Results

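Subtelomeric regions were taken as the merged peaks whose midpoint lay within 1 Mb of either end of chromosomes 1 to 22 or X of hg38. Peaks came from 6 CUT&RUN lists, and peaks that shared at least 1 bp were merged. The merge gave 6876 regions, 6825 of them on these chromosomes and 51 on other sequences. Of the 6825, 273 were subtelomeric and 6552 were not. Distance was counted from the last position of the chromosome, gaps included. The members ran from 10.58 to 996.9 kb from an end, with a median of 579 kb. The outermost members just inside the limit lay at 991.7 and 996.9 kb, and the next region outside it at 1000015 bp, followed by 1000.9 kb. A member was 182 to 5168 bp long, with a median of 918 bp, against 934 bp for the other regions.

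All samples were U2OS cells, a human osteosarcoma line, of 1 clone in which a V5-Halo tag had been put on endogenous Sp1. Each protein and antibody was profiled in 2 replicates, and the authors joined both into 1 peak list, so that a list has no replicate of its own. The rule used mouse anti-FLAG lists of 4 induced lines and both anti-V5 lists of the parental line (CTRL), which read the tagged endogenous Sp1. The induced lines carried a SNAPf-tagged, FLAG-tagged transgene with nuclear localization signals at AAVS1, induced by doxycycline at 1 µg/mL for 36 h before and 36 h after a cell sort. Doxycycline at 1 µg/mL for 36 h is listed for the parental samples as well. Sp1 WT is the full-length factor. Sp1 DBD lacks the N-terminal disordered region and keeps the DNA-binding domain, made of 3 zinc fingers, with the C-terminal tail. EWS IDR-Sp1 DBD joins that domain to the disordered region of EWS, and CTCF DBD is the zinc finger domain of CTCF alone. Lines with SNAPf-NLS, the bacterial repressor LacI, Sp1 IDR-LacI, Sp1 with its zinc fingers truncated to a lone finger and its N-terminal disordered region kept (Sp1 DBD Mutant) or Sp1 IDR-CTCF DBD served for comparison only, as did anti-FLAG CUT&RUN in the parental line, which holds no FLAG. The labels do not say that the replicates came from separate cultures.

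The ends of human chromosomes carry arrays of the hexamer TTAGGG, and behind them lie blocks of sequence copied between chromosome ends, with pseudogenes and short gene families. CTCF is known to bind in some of these copied blocks, close to where telomeric repeat RNA starts. Further in, many ends are rich in genes, G and C, CpG islands and short tandem repeats. Sp1 recognizes the GC box, GGGCGG, which is common at promoters of widely expressed genes.

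The 7 regions within 20 kb of an end are described first, a bin chosen after the values were seen. They lay 584 to 1935 bp from the first assembled base, which at these ends follows a gap of 10.0 kb. The stretch of each that carried its summit, where the pileup is highest, is given here on the plus strand of hg38 for 4 regions with the CTCF core motif and for the nearest region of all, which had none. Capitals mark the CTCF core in the first 4 and the GC box in the fifth, each motif searched on both strands.
16p, chr16:10947-11147: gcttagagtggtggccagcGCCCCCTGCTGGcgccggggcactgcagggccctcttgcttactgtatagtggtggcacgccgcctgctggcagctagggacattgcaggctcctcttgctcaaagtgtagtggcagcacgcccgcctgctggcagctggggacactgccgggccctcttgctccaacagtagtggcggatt
4q, chr4:190203344-190203544: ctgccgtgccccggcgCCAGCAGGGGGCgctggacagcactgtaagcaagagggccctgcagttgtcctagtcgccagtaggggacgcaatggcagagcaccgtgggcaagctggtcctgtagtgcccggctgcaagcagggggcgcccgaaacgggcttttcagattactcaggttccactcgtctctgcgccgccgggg
9p, chr9:11335-11535: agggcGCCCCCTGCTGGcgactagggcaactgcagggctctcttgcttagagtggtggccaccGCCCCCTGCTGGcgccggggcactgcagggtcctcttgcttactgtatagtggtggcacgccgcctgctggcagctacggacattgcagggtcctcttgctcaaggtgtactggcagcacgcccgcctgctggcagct
15q, chr15:101979608-101979808: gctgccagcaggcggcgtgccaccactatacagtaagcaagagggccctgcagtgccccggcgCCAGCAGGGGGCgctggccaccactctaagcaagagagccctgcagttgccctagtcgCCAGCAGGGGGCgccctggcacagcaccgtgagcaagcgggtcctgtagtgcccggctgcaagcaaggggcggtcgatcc
21q, chr21:46699287-46699407: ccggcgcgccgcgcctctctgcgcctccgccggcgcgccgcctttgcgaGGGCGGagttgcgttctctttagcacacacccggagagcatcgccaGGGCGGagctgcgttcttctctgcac

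CTCF DBD had a peak in 6 of these 7 regions. Values are the −log10 p of the peak, which the authors' caller gave for each replicate and which the merged list carries as the lower of both. At the end of 16p (chr16:10490-11241, 508 bp from a start of the DDX11L family of pseudogenes) CTCF DBD had 12.3 and 17.7 in the replicates, Sp1 WT 14.9 and 17, and Sp1 DBD 9.8 and 13.5. This was the end region with a peak in most lists, 3 of the 6. The other 5 CTCF DBD regions had a peak in no other list of the rule. Their replicate values were 8.37 and 18.8 on 4q (chr4:190203202-190203726), 7.9 and 25.5 on 9p (chr9:11245-11570), and 8.41 and 16.1 on 2q (chr2:242181801-242182259). They were 9.25 and 12.8 on 15q (chr15:101979549-101979783), and 11.8 and 18.5 on 1q (chr1:248944079-248944896). The whole CTCF DBD list ran from 6.95 to 33.2, and the end regions took ranks from 170 (16p) to 573 (9p) of its 649 peaks.

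The seventh region, on 21q (chr21:46699097-46699703), lay nearest to an end of all members. Its nearest annotated start was that of RPL23AP4, a pseudogene of a ribosomal protein, 8583 bp away. Among the lists of the rule it had a peak of Sp1 WT alone, with 16.8 and 19.1 in the replicates. It held 2 GC boxes within 100 bp of the summit. Sp1 IDR-CTCF DBD, a list outside the rule, had a peak of 10.9 close by (chr21:46698099-46698779), which overlapped no member. No protein-coding gene starts within 20 kb of an end, and neither the EWS IDR-Sp1 DBD list nor either parental anti-V5 list had a peak there. The next region inward lay at 44.2 kb, at the start of CENPBD2P on 19q.

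The sequence of these 7 regions was repeated by a fixed measure: at least 50% of the 31-base words within 100 bp of the summit occur more than once in hg38, 74.3% at 16p and 100% in 4 of them. Between 15q and 16p 64 words were shared, 37.4% of each window, and between 1q and 2q 41 words, or 24%. A CTCF core stood within 100 bp of the summit at 16p, 4q, 9p and 15q, and elsewhere in the region at 1q and 2q. Of the 15 subtelomeric CTCF DBD regions, 5 had the core within 100 bp of their CTCF DBD summit (33.3%, 95% Wilson interval 15.2 to 58.3%), against 20 of 616 elsewhere (3.25%). Of these 5, 4 were end regions, and the fifth lay at PTDSS2 on 11p. The list of Sp1 IDR-CTCF DBD, which the rule did not use, overlapped 4 of the 6 end regions (66.7%, 30 to 90.3%), namely 16p, 1q, 4q and 2q. It overlapped 1 of the other 9 subtelomeric CTCF DBD regions and 112 of 616 elsewhere (18.2%, 15.3 to 21.4%). As several end regions share words, they are not independent of each other. The intervals of this paragraph treat them as independent. Reads from copied sequence can align to more than 1 end, and their part in these peaks was not tested.

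**Figure D1:**
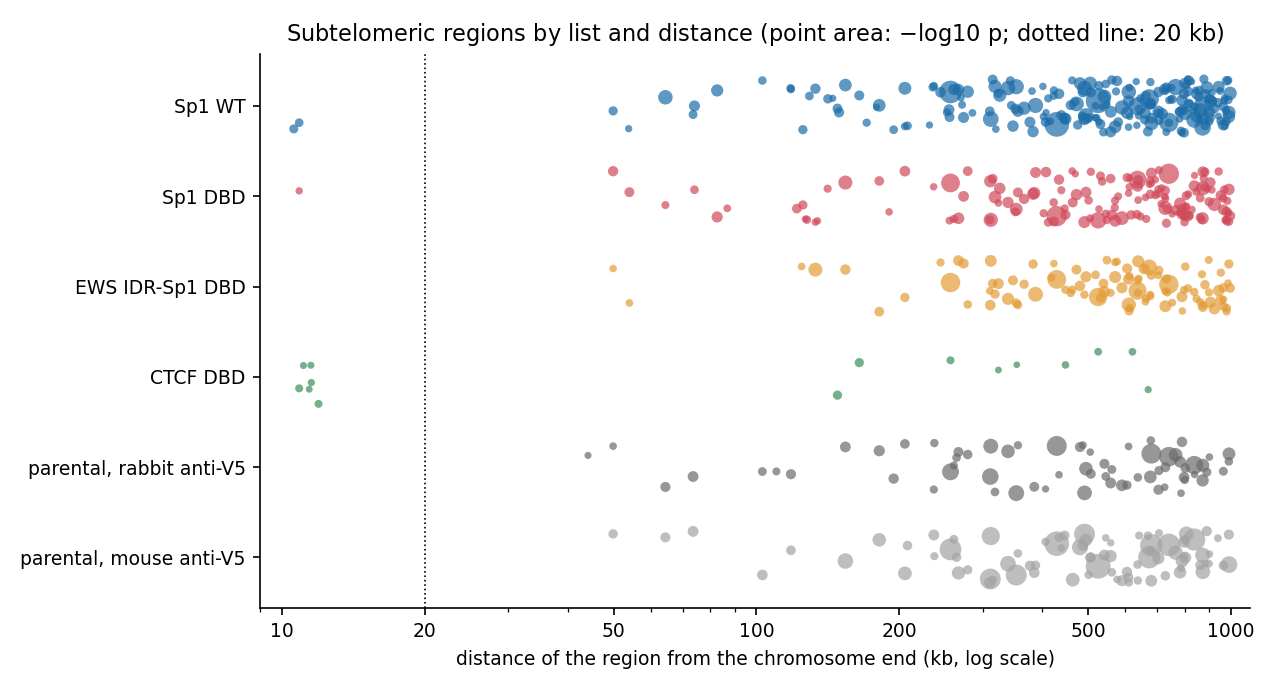
Each point is a subtelomeric region with a peak in the list on the vertical axis, at its distance from the chromosome end in kb on a log axis. Point area follows the −log10 p of the peak, and the dotted line marks 20 kb. The 6 CTCF DBD regions near the ends stand apart from 9 farther in, while the other lists have 0 to 2 regions left of the line.

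Peaks were also called near the ends in control lists. The parental mouse anti-FLAG list, made in cells without FLAG, held 22 peaks, of which 5 were subtelomeric (22.7%, 10.1 to 43.4%) and 3 lay within 20 kb of an end, at Xq, 12q and 10p. The parental rabbit anti-FLAG list held 54 peaks, 8 of them subtelomeric and 4 within 20 kb, at 12q, 10p, Xq and 5p. None of these near-end control peaks overlapped a member. In the mouse list they had 8.49 at Xq, 4.73 at 12q and 4.48 at 10p. In the rabbit list they had 11 at 12q, 10.1 at 10p, 8.58 at Xq and 6.53 at 5p. The start nearest to the Xq peak was that of DDX11L16. At least 50% of the words of the 9p end region, and of the 15q end region, also occur within 1 Mb of the Xq end. Whether copied sequence links these control peaks with the members was not tested. SNAPf-NLS, LacI, Sp1 IDR-LacI and Sp1 DBD Mutant, with 94 to 295 peaks each, had 0 subtelomeric peaks.

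The 6 lists named above, from parental anti-FLAG to Sp1 DBD Mutant, are called non-binding with respect to CUT&RUN peaks only. The paper reports that Sp1 IDR-LacI and Sp1 DBD Mutant colocalized with Sp1 in live cells. Of all regions, 1.35% overlapped a peak of any of the 6 non-binding lists, and of the members 2 of 273 did (0.733%, 0.201 to 2.63%). Both overlaps were with the parental rabbit anti-FLAG list. The first, on 18q (chr18:80262935-80263243, 15535 bp from the start of the polarity gene PARD6G), was called for parental rabbit anti-V5 at 12.3, where the control peak had 16.5. It was also the only region of all 6825 with 3 TTAGGG units in a row, in 46 overlapping matches. The second, on 1p (chr1:633930-634134), lies in MTATP6P1, a nuclear copy of a mitochondrial gene, and was called for Sp1 WT at 9.71 beside a control peak of 9.65. Each of the other 5 non-binding lists overlapped 0 of 273 members, which allows a share of up to 1.39%.

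Sp1 WT had a peak in most subtelomeric regions, and each list was set against its share of all 6825 regions. Intervals are 95% Wilson intervals for shares and Newcombe intervals for differences, and cover counting error over regions only. Sp1 WT had a peak in 208 members (76.2%, 70.8 to 80.9%), beside 74.8% of all regions. Sp1 DBD had a peak in 151 (55.3%, 49.4 to 61.1%), beside 47.5% of all. EWS IDR-Sp1 DBD had a peak in 99 (36.3%), beside 36.5% of all. CTCF DBD had a peak in 15 (5.49%, 3.36 to 8.87%), beside 9.25% of all. The parental rabbit anti-V5 list reached 66 members (24.2%), beside 28.7% of all, and the mouse anti-V5 list 83 (30.4%), beside 26.7% of all.

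Only 2 of these lists differed from the other 6552 regions by more than the counting interval. The Sp1 DBD share was 8.13 percentage points higher (2.08 to 14), and the CTCF DBD share 3.91 points lower (−6.17 to −0.467). For Sp1 WT the difference was 1.42 points (−4.07 to 6.21) and for EWS IDR-Sp1 DBD −0.259 points (−5.86 to 5.71). The band from 1 to 2 Mb, with 266 regions, did not separate from the members for Sp1 DBD (−0.704 points, −9.03 to 7.64) or for CTCF DBD (1.36 points, −2.42 to 5.19). EWS IDR-Sp1 DBD was lower within 1 Mb than in that band, 36.3 against 47% (−10.7 points, −18.9 to −2.41). The differences of Sp1 DBD and CTCF DBD from the other regions did not hold under every setting. That of Sp1 DBD was 3.46 points within 500 kb (−5.83 to 12.7) and that of CTCF DBD turned to 1.69 points (−2.92 to 8.92), and at an irreproducible discovery rate of at most 0.01 they were 5.66 (−2.78 to 14.3) and −0.962 points (−2.94 to 3.55).

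The 6 lists hold 649 to 5151 peaks, so the shares were also taken at equal length. With each list reduced to its 649 highest peaks, 70 subtelomeric regions were left. Of these, Sp1 WT had 40%, against 32.4% of 1896 other regions, Sp1 DBD 40 against 32.2%, EWS IDR-Sp1 DBD 41.4 against 32.4%, mouse anti-V5 38.6 against 32.8%, rabbit anti-V5 25.7 against 33.2% and CTCF DBD 21.4 against 32.5%. All 6 intervals of the difference reached both sides of 0, for Sp1 DBD from −3.1 to 19.7 points and for CTCF DBD from −19.3 to 0.0956 points.

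**Figure D2:**
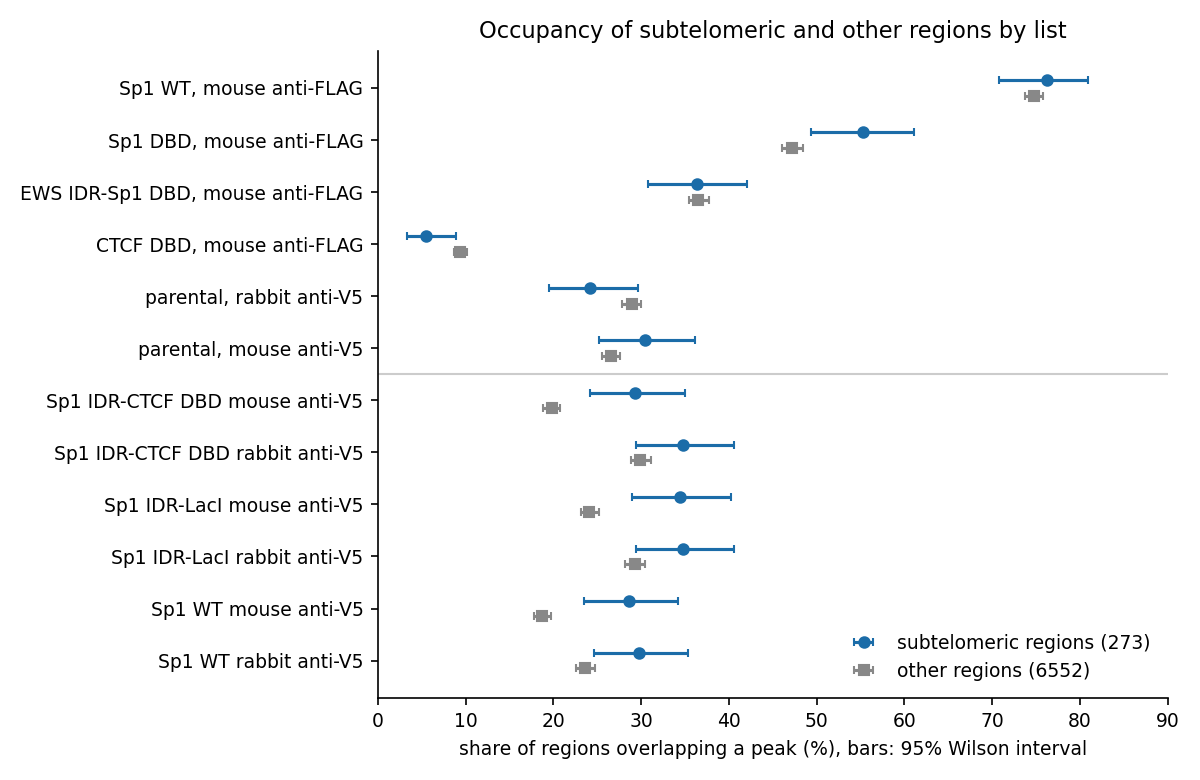
Share of 273 subtelomeric regions (circles) and 6552 other regions (squares) that overlap a peak of each list, in percent, with 95% Wilson intervals. Lists of the rule stand above the line and the anti-V5 lists of induced lines below it, where mouse anti-V5 shares were 28.6 to 34.4% at the ends and 18.7 to 24.1% elsewhere.

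Endogenous Sp1 in the induced lines, read by anti-V5 lists that played no part in choosing the regions, was found more often at members than at other regions. With the mouse antibody the shares were 29.3% in the Sp1 IDR-CTCF DBD line (9.54 points higher, 4.36 to 15.3), 34.4% in the Sp1 IDR-LacI line (10.3 points, 4.83 to 16.2) and 28.6% in the Sp1 WT line (9.84 points, 4.72 to 15.5). With the rabbit antibody they were 34.8, 34.8 and 29.7%, or 4.87 (−0.65 to 10.8), 5.53 (0.00743 to 11.5) and 6.06 points (0.847 to 11.8) higher. Without repeated sequence the mouse differences were 8.25, 10.1 and 7.33 points, with intervals above 0, and the rabbit differences 3.71, 3.2 and 4.27 points, with intervals that reached below 0. The 1 to 2 Mb band had like shares, from 28.6 to 38.3% over the 6 lists. A peak in all 8 anti-V5 lists was found at 41 members (15%) and at 11.2% of the others, and 146 members (53.5%) had none.

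By combination, 110 members (40.3%) had a peak in 1 list of the rule, 57 in 2, 52 in 3, 29 in 4, 24 in 5 and 1 in all 6. Sp1 WT alone accounted for 60 members (22%, against 25.1% of the others). Sp1 DBD alone accounted for 29 (10.6%, 7.5 to 14.8%), against 309 of 6552 (4.72%), a difference of 5.91 points (2.74 to 10.2). Without repeated sequence it was 24 of 219 (11%) against 4.74%. In the 1 to 2 Mb band the share was 7.14%, and the difference of 3.48 points ran from −1.4 to 8.39. The difference from the other regions was 3.28 points (−0.574 to 9.94) within 500 kb, 2.42 points (−0.839 to 8.05) at an irreproducible discovery rate of at most 0.01 and 4.51 points (−0.178 to 13.4) with lists of equal length. These 29 regions sat at 18 ends, 24 within 1 kb of a transcription start and 23 with a GC box at the summit. They were weak, from 8.87 to 19.6 with a median of 11.5, about as low as the 11.4 of such regions elsewhere. An anti-V5 list of an induced line held 1 of them.

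The region with a peak in all 6 lists was on 5q (chr5:181280609-181282776), 256.6 kb from the end, in an intron of the unnamed gene ENSG00000248103 and 365 bp from its start. Its replicate values were 126 and 136 for Sp1 WT, 103 and 85.9 for Sp1 DBD, 93 and 137 for EWS IDR-Sp1 DBD, 12 and 28.9 for CTCF DBD, 68.4 and 94.3 for rabbit anti-V5, and 117 and 266 for mouse anti-V5. It stood at rank 5, 3 and 1 of the whole Sp1 WT, Sp1 DBD and EWS IDR-Sp1 DBD lists. Its window held 7 GC boxes. Of its 31-base words, 43.3% recur nearby, most often 78 bp apart.

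Subtelomeric regions gave several of the strongest peaks of the Sp1 WT, Sp1 DBD and EWS IDR-Sp1 DBD lists. Of the 10 highest peaks, 3 were subtelomeric for Sp1 WT, 4 for Sp1 DBD and 5 for EWS IDR-Sp1 DBD, where 4.06, 4.64 and 3.91% of all peaks of these lists were subtelomeric. Those of Sp1 WT and Sp1 DBD lay in regions that were also among the 5 of EWS IDR-Sp1 DBD, so the same regions recur. They lay 256.6 to 740.5 kb from an end. The parental anti-V5 lists had 0 among their 10 highest, and the 6 anti-V5 lists of induced lines 1 to 3 each. Here 5 of these regions and 2 DUX4L copies, which had Sp1 DBD peaks alone, are shown 60 bp to either side of the summit, on the plus strand of hg38. In the first 3, which hold no GC box within 100 bp of the summit, capitals mark a stretch as long as the commonest spacing of its words, and in the rest they mark GC boxes on either strand.
21q, chr21:46184526-46184646: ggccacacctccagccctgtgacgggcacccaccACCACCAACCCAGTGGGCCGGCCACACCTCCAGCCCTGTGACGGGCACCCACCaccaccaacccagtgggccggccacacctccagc
11q, chr11:134656741-134656861: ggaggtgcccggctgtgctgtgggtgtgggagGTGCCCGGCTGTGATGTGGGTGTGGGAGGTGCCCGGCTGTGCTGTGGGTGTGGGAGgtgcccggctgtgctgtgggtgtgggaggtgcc
7p, chr7:636033-636153: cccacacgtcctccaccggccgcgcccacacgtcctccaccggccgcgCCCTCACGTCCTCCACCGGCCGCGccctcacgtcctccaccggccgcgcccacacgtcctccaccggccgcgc
2q, chr2:241355713-241355833: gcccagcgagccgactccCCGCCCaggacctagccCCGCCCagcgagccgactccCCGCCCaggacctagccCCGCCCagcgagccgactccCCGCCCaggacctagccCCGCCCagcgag
5q, chr5:181281680-181281800: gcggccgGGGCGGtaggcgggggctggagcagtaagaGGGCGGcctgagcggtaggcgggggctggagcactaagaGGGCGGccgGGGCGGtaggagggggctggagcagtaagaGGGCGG
4q DUX4L6, chr4:190073226-190073346: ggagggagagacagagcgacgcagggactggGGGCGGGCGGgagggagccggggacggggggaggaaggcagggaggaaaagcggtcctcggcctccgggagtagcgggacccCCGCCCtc
4q DUX4L2, chr4:190092879-190092999: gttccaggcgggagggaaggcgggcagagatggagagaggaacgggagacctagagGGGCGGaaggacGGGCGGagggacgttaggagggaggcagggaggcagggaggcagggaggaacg

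The 21q region (chr21:46183865-46185208), 110 bp from the start of SPATC1L and 525.4 kb from the end, was the highest of the whole Sp1 WT list, with 153 and 207 in the replicates. It had 64.5 and 120 for Sp1 DBD, 82.7 and 97.5 for EWS IDR-Sp1 DBD, 11 and 18.5 for CTCF DBD and 153 and 373 for mouse anti-V5, but no peak for parental rabbit anti-V5. Its words recur every 53 bp. The 11q region (chr11:134656179-134657504), in an intron of ENSG00000286374, an unnamed gene, was second for Sp1 WT with 152 and 225, and first for Sp1 DBD with 103 and 102. It also had 85.9 and 121 for EWS IDR-Sp1 DBD, 97.2 and 142 for rabbit anti-V5 and 150 and 280 for mouse anti-V5, with a spacing of 56 bp. Both stood far above the median subtelomeric peak of Sp1 WT, 18.9.

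The 7p region (chr7:635519-636899) lies in an intron of PRKAR1B, which encodes a regulatory subunit of protein kinase A, 33301 bp from the nearest start. It had 80.5 and 119 for Sp1 WT, 111 and 78.2 for Sp1 DBD and 96.7 and 79.3 for EWS IDR-Sp1 DBD. Parental mouse anti-V5 had 14.5 and 62.2, rank 1415 of its 1830 peaks, and parental rabbit anti-V5 had no peak. Every anti-V5 list of an induced line, rabbit and mouse, had a peak at this 7p region. The spacing of its words was 24 bp. The 2p region at LINC01115 (chr2:739739-741298), with a spacing of 252 bp, had 91.3 and 130 for Sp1 WT, 108 and 101 for Sp1 DBD, 92 and 101 for EWS IDR-Sp1 DBD, 93 and 113 for rabbit anti-V5 and 127 and 218 for mouse anti-V5.

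At 2q, upstream of FARP2 (chr2:241355326-241356656), peaks were high for full-length Sp1, tagged at its own gene or from the transgene, and low for EWS IDR-Sp1 DBD. Mouse anti-V5 had 121 and 284 and rabbit anti-V5 82.1 and 185, beside 59.4 and 127 for Sp1 WT, 27.2 and 39 for Sp1 DBD and 13.6 and 27.6 for EWS IDR-Sp1 DBD. It stood at rank 57 of 1830 for mouse anti-V5, 211 of 5151 for Sp1 WT and 1679 of 2535 for EWS IDR-Sp1 DBD. For Sp1 DBD, which also lacks the N-terminal disordered region of Sp1, it stood at rank 662 of 3277. The window held 11 GC boxes, and its 31-base words recur most often 37 bp apart. The 19p region in an intron of MADCAM1 (chr19:491156-492565), the gene of an adhesion molecule for lymphocytes, had 52.6 and 79.8 for Sp1 WT, 51 and 103 for rabbit anti-V5 and 108 and 225 for mouse anti-V5, and no peak for Sp1 DBD or EWS IDR-Sp1 DBD.

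**Figure D3:**
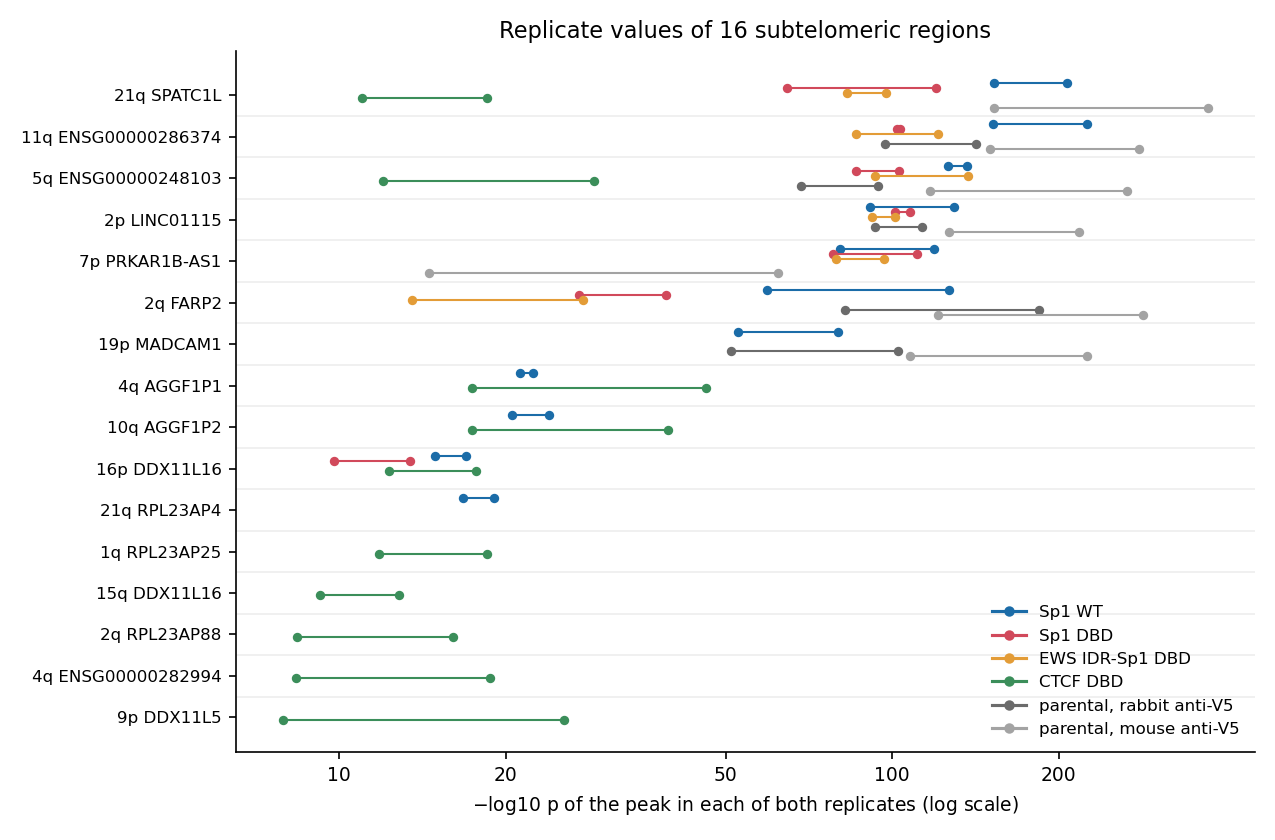
−log10 p of the peak in both replicates (2 points joined by a line, log axis) for 16 subtelomeric regions, by list in colour. Values compare only within a list: Sp1 WT runs from 14.9 at 16p to 225 at 11q, and CTCF DBD from 7.9 at 9p to 46.1 at 4q AGGF1P1.

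Repeated sequence was more frequent at the members than elsewhere. By the measure of 31-base words, 54 were repeated (19.8%, 15.5 to 24.9%), against 6.94% of the others, a difference of 12.8 points (8.5 to 18), and against 12% in the 1 to 2 Mb band (7.75 points, 1.56 to 13.9). At least 50% of the words were found at another chromosome end for 18 of the 54, elsewhere at the same end for 10, in a chromosome interior for 3 and in unplaced or mitochondrial sequence for 3. For 27 no one of these reached 50%. Copies in or just beside the summit window were left out of this count, so short tandem repeats can fall among the 27. Tandem repetition was measured as at least 50% of the words recurring within 5 kb on the same strand, a measure chosen after the data were seen. It held for 39 members at 21 ends (14.3%, 10.6 to 18.9%), for 2.3% of the others (12 points, 8.3 to 16.6) and for 7.14% of the 1 to 2 Mb band (7.14 points, 1.91 to 12.4). The commonest spacing ran from 2 to 3300 bp with a median of 52 bp, and was under 100 bp in 29 of the 39.

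As the strongest peaks were known when this measure was chosen, the ranks in locally repeated sequence are a description only. The shares of peaks among the highest 25% of their own list, in locally repeated sequence and outside it, were 37.9 against 25.1% for Sp1 WT (11 of 29 and 45 of 179), 36 against 22.2% for Sp1 DBD (9 of 25 and 28 of 126), 50 against 25.3% for EWS IDR-Sp1 DBD (8 of 16 and 21 of 83), 45.5 against 18.2% for rabbit anti-V5 (5 of 11 and 10 of 55) and 42.1 against 20.3% for mouse anti-V5 (8 of 19 and 13 of 64). The medians did not all follow. The median percentile within the list was 66 against 47.1 for Sp1 WT, 66.5 against 49.8 for EWS IDR-Sp1 DBD and 73.3 against 43.8 for rabbit anti-V5, but 42.2 against 47.5 for Sp1 DBD and 42.7 against 46.4 for mouse anti-V5. Only 12 of the 39 (30.8%) were within 1 kb of a start, where 206 of all 273 were. Over all subtelomeric peaks the median percentile was 50.6 for Sp1 WT, 45.6 for Sp1 DBD, 52.4 for EWS IDR-Sp1 DBD, 54.9 for CTCF DBD, 46.8 for rabbit anti-V5 and 45.4 for mouse anti-V5, close to the middle of each list.

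**Figure D4:**
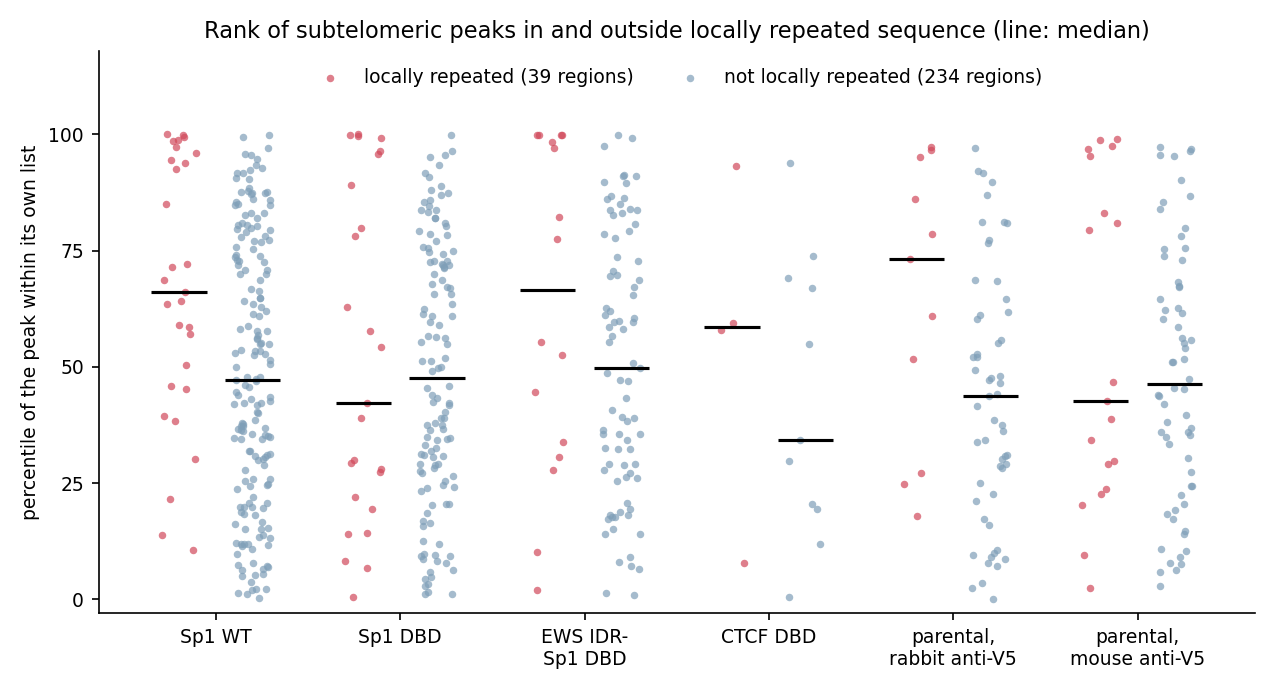
Percentile of each subtelomeric peak within its own list (100 is the highest), for 39 regions in locally repeated sequence and 234 others. Lines are medians, 66 against 47.1 for Sp1 WT and 42.2 against 47.5 for Sp1 DBD, and both kinds of region spread over nearly the whole range of the Sp1 DBD list.

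The longest spacing belonged to the DUX4L copies on 4q, part of a macrosatellite array whose unit holds the DUX4 gene of early embryonic cells. The array held 6 members, and their words recur every 3293 to 3300 bp. Sp1 DBD alone had a peak in 5, at 12.7, 9.92, 14.2, 8.87 and 19.6, and EWS IDR-Sp1 DBD alone in the sixth, at 11. No anti-V5 list had a peak in any of the 6, and neither did Sp1 WT. The parental mouse anti-FLAG list, made in cells without FLAG, had a peak of 6.6 nearest to DUX4 on 4q (chr4:190179544-190179725). That control peak overlapped no member, and its relation to the peaks at the copies was not tested. The highest, at DUX4L2 (chr4:190092509-190093203), had 33.7 and 19.6 in the replicates and 4 GC boxes within 100 bp of its summit. As the copies share words, up to 97.7% of a window, they are not independent of each other.

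A second pair of copied regions lay beside AGGF1P1 on 4q (chr4:190049350-190050184) and AGGF1P2 on 10q (chr10:133648883-133649533), pseudogenes of an angiogenic factor. They shared 72 words, 50.7 and 42.1% of their windows, and had the highest subtelomeric values of CTCF DBD, 17.4 and 46.1 on 4q and 17.4 and 39.4 on 10q. Sp1 WT had 21.2 and 20.5 in the merged list at the same regions. Neither summit had a GC box or a CTCF core within 100 bp. On 4q all 9 members were repeated, and 3 protein-coding genes start in its window.

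By density, members were 6.98 per Mb of sequence, against 2.28 per Mb in the rest of the chromosomes, 3.06 times as many, and 6.51 per Mb in the 1 to 2 Mb band. Protein-coding genes were 16.9 per Mb against 6.72, 2.51 times as many. Per 100 protein-coding genes there were 41.3 regions within 1 Mb, 41.6 in the band and 33.9 in the rest. GC content was 48 against 40.8%. The ratio of densities was 3.12 for Sp1 WT, 3.59 for Sp1 DBD, 3.04 for EWS IDR-Sp1 DBD, 2.56 for rabbit and 3.51 for mouse anti-V5, and 1.79 for CTCF DBD. Within the 1 Mb, density was 3.79 per Mb at 20 to 100 kb, 5.57 at 100 to 250 kb, 6.01 at 250 to 500 kb and 8.28 at 500 to 750 kb, and was 7.71 at 750 to 1000 kb. The 7 regions within 20 kb stood in 0.26 Mb of sequence at 26 ends, or 26.9 per Mb.

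The ends differed widely. Of 46 ends, 41 had sequence within 1 Mb in hg38, and 13p, 14p, 15p, 21p and 22p were gaps only. A region was found at 39 ends, while 3p and 6p had none. The median was 6 per end. The most were at 20q with 18, 19p with 17 and 8q with 17, followed by 22q with 15 and 16p with 14, and the first 3 held 52 of the 273 (19%). Long arms held 181 regions (8.26 per Mb) and short arms 92 (5.35 per Mb), with 45.4 and 35.1 regions per 100 genes. Over the 41 ends, which share libraries and differ in base composition, Spearman's rho of the number of regions was 0.74 with protein-coding genes and 0.77 with GC content, and that of genes with GC was 0.63. Against this trend 4q had 9 regions with 3 genes, 19q 9 regions with 45 genes, and 1q 3 regions with 34 genes.

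**Figure D5:**
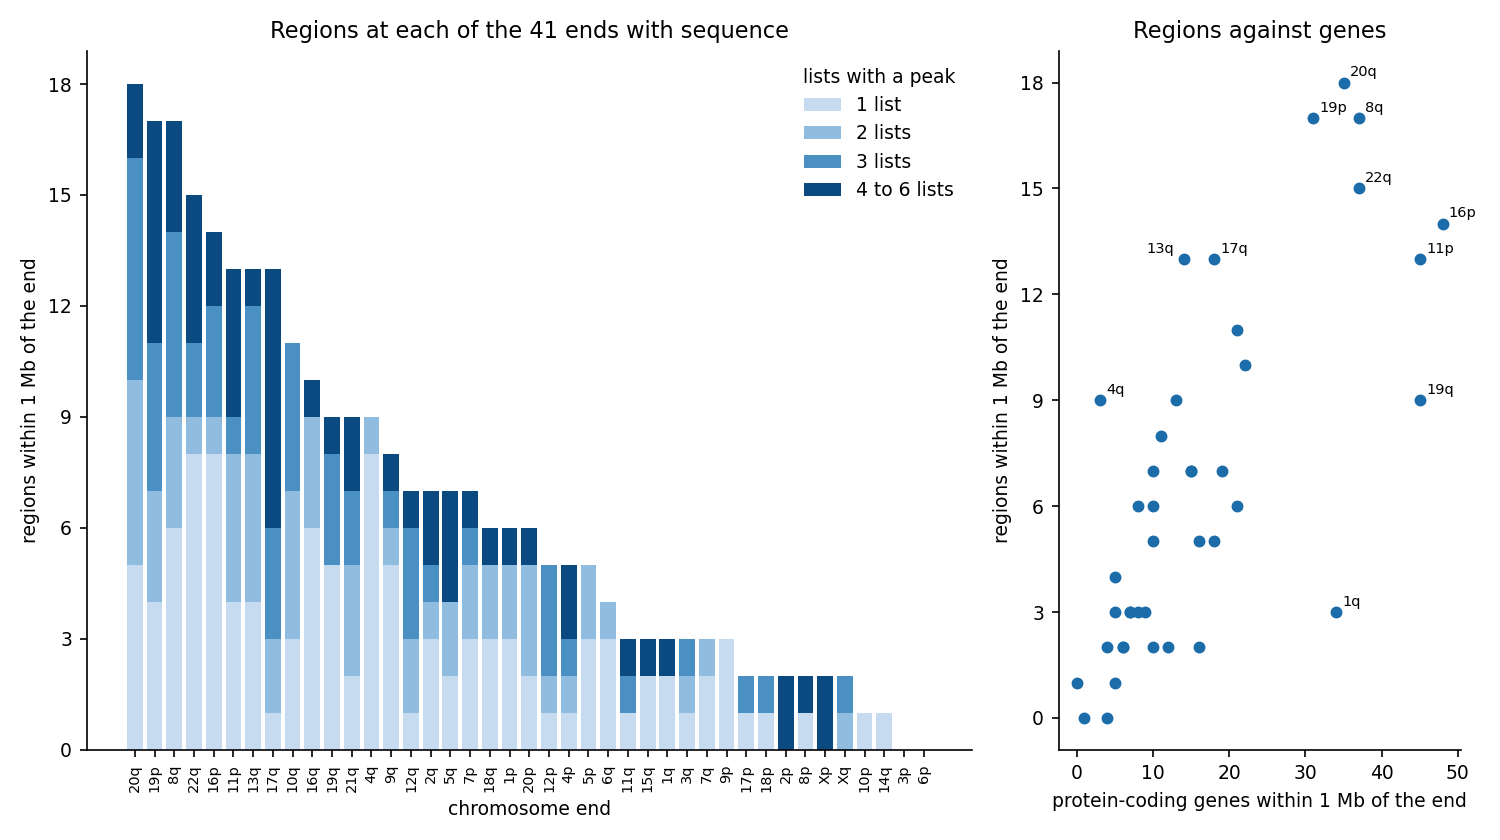
Number of subtelomeric regions at each of 41 chromosome ends, shaded by how many of the 6 lists had a peak (left), and the same number against the protein-coding genes that start in that window (right). The 3 fullest ends held 17 or 18 regions, 3p and 6p had 0, and 4q, 19q and 1q lay apart from the others.

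On 20q the regions began 381 kb from the end. The highest Sp1 WT value was 59, at the region 1986 bp from a start of UCKL1, a uridine kinase gene, where rabbit anti-V5 had 43 and mouse anti-V5 36.6. The region 10452 bp from the start of STMN3, a gene for a regulator of microtubules in neurons, had 40.6 for Sp1 WT and 32 for mouse anti-V5, with 11 GC boxes. On 19p the regions began at 492 kb. That at FSTL3, which encodes a secreted antagonist of activin, had 45.4 for Sp1 WT, 26.7 for Sp1 DBD, 18.5 for EWS IDR-Sp1 DBD, 96.8 for rabbit and 125 for mouse anti-V5, and no GC box in its window. A locally repeated region in an exon of MED16, a subunit of the Mediator complex, had 66.4 for Sp1 WT and 53.7 for mouse anti-V5. On 17q 8 of 13 regions had a peak in each parental anti-V5 list, while on 13q, also with 13, rabbit anti-V5 had 0 and mouse anti-V5 1.

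Most members lay at promoters. The summit was within 1 kb of a transcription start in 206 (75.5%, 70 to 80.2%), against 80.3% of the others (−4.82 points, −10.3 to 0.006), and without repeated sequence the shares were 84 and 83.2%. It lay in an exon in 24.9%, in an intron in 34.8% and outside genes in 40.3%. A GC box stood within 100 bp in 185 (67.8%, 62 to 73%), against 66.6% of the others and 13.4% of windows 2000 bp to either side of the members. With 2 or more GC boxes there were 135 (49.5%) against 40.3% (9.16 points, 3.16 to 15.2), and 53% in the 1 to 2 Mb band. The median GC content of the window was 71.6%, against 66.2%. At the summit of its own peak, a GC box was held by 70.7% of Sp1 WT, 76.2% of Sp1 DBD, 69.7% of EWS IDR-Sp1 DBD, 83.3% of rabbit anti-V5, 81.9% of mouse anti-V5 and 33.3% of CTCF DBD members. It was held by 60% of regions in 1 list and by 82.8% of those in 4.

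Of the 661 protein-coding genes with a start in the window, 211 had a region within 1 kb of it (31.9%, 28.5 to 35.6%), beside 28.3% of all such genes, and 3.71 points above the genes outside (0.212 to 7.42). Of 605 lncRNA genes, 55 had one (9.09%, 7.05 to 11.6%), beside 8.48% of all. The gene lists were short, were chosen with earlier results known, and are given by counts only. Their counts stand beside the 28.3% of all protein-coding genes. That share does not serve for the duplicated families, whose entries are mostly pseudogenes and noncoding genes. A region near the starts of several genes counts for each of them.

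In the α-globin domain of 16p, 2 of 12 genes had a region. The region belongs to both POLR3K, a subunit of RNA polymerase III, and SNRNP25, a spliceosome protein, which share a divergent start, and had 9.41 for Sp1 WT alone. The globin genes themselves, HBZ, HBM, HBA2, HBA1 and HBQ1, which are expressed in red cell precursors, had none. Beyond it on 16p, 12 of 31 genes had a region. AXIN1, a scaffold that restrains Wnt signalling, had 55.2 for Sp1 WT, 38 for Sp1 DBD, 17.4 for EWS IDR-Sp1 DBD, 60 for rabbit and 108 for mouse anti-V5. RAB40C, a small GTPase of ubiquitin ligases, had 47.4, 44.2, 26.9, 30.4 and 26.9 in the same order. In contrast, HAGHL at 18.9, PIGQ at 13.1 and METRN at 11.5 had a peak of Sp1 DBD alone.

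Among genes of the ubiquitin and proteasome system 6 of 7 had a region, with CHFR, a mitotic checkpoint ligase, at 40.6 for Sp1 WT, STUB1 at 25.4, CDC34 at 21 and RNF126 at 19.1. Among transcription and RNA processing genes 8 of 12 had one, and POLR3K and SNRNP25 among them share the region given above. The splicing regulator PTBP1 had 19.8 for Sp1 WT, 12.3 for Sp1 DBD, 25.3 for rabbit and 30.1 for mouse anti-V5. The corepressor TRIM28 had 16.2 for Sp1 WT, 25.6 for rabbit and 26 for mouse anti-V5, and TBP, which binds the TATA box, had 12.4 for Sp1 WT alone. The TBP region is also that of PSMB1, which is among the 6 of 7 ubiquitin and proteasome genes. Of 7 genes for DNA replication, repair and chromosome maintenance 3 had a region, led by the condensin subunit NCAPH2 with 20.1 for Sp1 WT and 29 for mouse anti-V5. Of 12 genes for mitochondrial proteins 4 had one, with the glutamate carrier SLC25A22 at 24.4 for Sp1 WT. Of 13 genes for cell surface, signalling and transport 7 had one, among them SUN1 of the nuclear envelope at 20.2 for Sp1 WT and MGAT1, an enzyme of N-glycan synthesis, at 45.6 for Sp1 DBD with no Sp1 WT peak. Endogenous Sp1 did have a peak at that MGAT1 region, with 20.8 for parental rabbit and 19.1 for parental mouse anti-V5. Every anti-V5 list of an induced line had one there too. Of 4 ribosome and translation genes 0 had one.

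Zinc finger genes, which cluster at the ends of 19q and 8q, had a region in 16 of 56 cases (28.6%, 18.4 to 41.5%), against 134 of 504 elsewhere (26.6%). ZNF7 was the highest in the anti-V5 lists, with 66.3 for rabbit and 107 for mouse, 34.7 for Sp1 DBD and no Sp1 WT peak. ZNF251 had 28.8 for Sp1 WT and 31.2 for Sp1 DBD. Duplicated families of chromosome ends had a region in 7 of 122 entries, all DDX11L or DUX4L copies, and in 0 of 153 entries elsewhere. In the pseudoautosomal region of Xp, GTPBP6 had 40.3 for Sp1 WT and 36.9 for Sp1 DBD, and 3 other genes of that list had none.

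Among regions with a peak in 1 list, the highest were at PNPLA7 on 9q for Sp1 WT (31.8), at DUX4L2 on 4q for Sp1 DBD (19.6), near RPL5P28 on 10q for EWS IDR-Sp1 DBD (26.6), at the end of 1q for CTCF DBD (11.8), in EHMT1 on 9q for rabbit anti-V5 (14.3) and in SCRT1 on 8q for mouse anti-V5 (52). The last lies in an exon of a gene for a neuronal repressor, 1922 bp from the start of SLC52A2.

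Replicates of a list differed in level and kept much of their order. Over the members, the higher replicate value was 1.69 times the lower for Sp1 WT in the median, 1.25 for Sp1 DBD, 1.28 for EWS IDR-Sp1 DBD, 1.91 for CTCF DBD, 2.01 for rabbit and 2.66 for mouse anti-V5. Spearman's rho of the replicates was 0.824, 0.756, 0.602, 0.575, 0.751 and 0.851 in the same order. Over the other regions it was 0.818, 0.793, 0.697, 0.355, 0.839 and 0.869. Peaks with an IDR of at most 0.01 were 51.9% of the subtelomeric Sp1 WT peaks and 26.7% of those of CTCF DBD. Values of different lists are not on 1 scale and are given side by side, not compared.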

How the data were processed

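CUT&RUN cuts and sequences the DNA around an antibody. The tools the authors named were cutadapt 2.6 (trimming), Bowtie2 2.3.5.1 (alignment to hg38), SAMtools 1.9, bedtools 2.27.1 and MACS3 2.2.7.1, which made peaks in every replicate at a p of 0.001 with merged controls. Both replicates were then joined at an irreproducible discovery rate (IDR) of 0.1 or less. The deposited lists give −log10 p values per replicate and merged, and a score, −log10 of the global IDR. Read totals are not in the lists, and depth was not analysed here.

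Of 38 samples in 19 lists, 6 lists were merged. Tables of the authors' own comparison of Sp1 WT with other constructs, 6 in all, were not used. Genes and starts came from GENCODE 44. Words of 31 bases were counted over hg38 on both strands. Python 3.11.15, NumPy 2.4.6, SciPy 1.17.1, pysam 0.24.0 and matplotlib 3.10.9 were used. Merging, the choice of chromosome end, the GC box search and the reading of words on both strands were checked on simulated or set cases. The Wilson and Newcombe intervals were not checked in this way. No test gives a p-value here, since regions are not replicates of a line. Named regions were the highest of each list, those nearest to an end, the highest in all or only 1 list, up to 4 genes of each gene list, the ends with most regions and those overlapping a control, and others in the text (SCRT1, FSTL3, MADCAM1, the 2p, 7p and 2q regions, the AGGF1P and DUX4L copies, and regions of 13q, 17q, 19p and 20q) were chosen after their values were seen. The members and gene lists were chosen with earlier results of these data known. Alternatives were the distance, IDR, merging, repeats, list length and windows.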

Additional observations from a re-analysis of the deposited data

How the results depend on the processing

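Over the number of regions, the shares and 100 alternatives, 75 values stayed within their counting interval, or within 1.5 times for the number of regions, and 25 moved beyond it. The number of regions was 110 within 500 kb and 539 within 2 Mb, 133 at an irreproducible discovery rate (IDR) up to 0.01, and 70 with lists of equal length. At an IDR of at most 0.01 the shares were 81.2% for Sp1 WT, 46.6% for Sp1 DBD, 25.6% for EWS IDR-Sp1 DBD, 3.01% for CTCF DBD, 30.1% for rabbit and 45.1% for mouse anti-V5, with 69.9% near a start and 73.7% with a GC box. With lists of equal length they were 40% for Sp1 WT, 40% for Sp1 DBD, 21.4% for CTCF DBD and 38.6% for mouse anti-V5. Without repeated sequence CTCF DBD had 1.83%, starts 84% and GC boxes 74%. Within 500 kb CTCF DBD had 10.9% and repeated sequence 27.3%. Starts within 500 bp gave 65.2% and within 5 kb 85.7%, a GC box anywhere in the region 90.1%, and a demand that all words be repeated 10.6%. The share in repeated sequence has no value without repeated sequence, and equal lists were used for number and occupancy only. The difference from the other regions, over 30 values for 3 results, changed sign in 1 and lost an interval clear of 0 in 11. For CTCF DBD it was 1.69 points within 500 kb, a reversal, −3.21 and −0.962 points at an IDR of at most 0.05 and 0.01, −3.43 points without regions of non-binding lists, −3.52 points without the end with the most regions, and −11.1 points with lists of equal length. For Sp1 DBD it was 3.46 points within 500 kb, 5.66 points at an IDR of at most 0.01 and 7.77 points with equal lists, and for Sp1 DBD alone, a difference chosen after seeing the data, 3.28, 2.42 and 4.51 points. Fewer peaks enter under the stricter IDR and equal lists, and the cause of the other shifts was not tested. Comparisons with the 1 to 2 Mb band and without repeated sequence were chosen after seeing the data. No paired analysis was possible because each list joins both replicates and no result comes from a test across samples. For the same reason no replicate could be left out. Read depth was not analysed here, and the 15 subtelomeric CTCF DBD peaks limit what can be said of that list.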
